A study of Mus musculus with 12 samples.

Results

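The clustered histone genes are the genes of the mouse Hist1, Hist2, Hist3 and Hist4 loci, which encode the core histones H2a, H2b, H3 and H4 and the linker histone H1. They were taken as all rows of the mRNA table whose symbol begins with Hist1h, Hist2h, Hist3h or Hist4h, without pseudogene symbols and without rows listed at 0 in every library. Of 70 such rows, 1 bore a pseudogene symbol and 4 were at 0 throughout, which left 65 members of 22769 genes with a value. The members were 5 genes for H1, 20 for H2a, 16 for H2b, 12 for H3 and 12 for H4. The libraries came from tumours of 4T1 cells, a mouse mammary carcinoma line, grown in Balb/c mice and taken 35 days after inoculation. The control group was 3 tumours from untreated mice, and the stress group was 3 tumours from mice restrained daily for 2 hours over 28 consecutive days. Tumours of both groups were flash frozen and extracted in the same way. Since no label ties each tumour to a mouse of its own, p-values measure the spread between these libraries, which may be technical. The sources used here do not state whether RNA was selected by its poly(A) tail. Values of 3 libraries are listed below in the order of replicates 1 to 3.

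Histones package DNA into nucleosomes, and most of their supply is made in S phase, when newly copied DNA must be packaged. The mRNAs of the clustered genes are unusual in that they normally carry no poly(A) tail and end just after a short stem-loop in the 3' UTR, which is bound by the stem-loop binding protein Slbp. Some members also give longer, polyadenylated mRNA, mainly in cells that have left the cell cycle. The replacement histones, such as H2afz and H3f3b, lie outside the clusters and give ordinary polyadenylated mRNA that is not confined to S phase.

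In GENCODE M21 on GRCm38, the assembly that is also called mm10, the members lie at 4 places. The Hist1 locus on chromosome 13 (21715763 to 23934851) held 51 of them, the Hist2 locus on chromosome 3 (96219865 to 96270132) held 10, the Hist3 locus on chromosome 11 (58948920 to 58956830) held 2 and the Hist4 gene on chromosome 6 (136801553 to 136804415) is a single member. Hist1h2al, which the symbol rule also takes, lies apart from the cluster on chromosome 13 (51202727 to 51203065) and is annotated as a processed pseudogene. Together with Hist1h2aj it is 1 of 2 members that GENCODE does not list as protein coding.

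The stem-loop motif sets these genes apart from nearly all others. The stem-loop consensus was searched in the annotated 3' UTRs on the transcript strand. Its 16 bases begin with GG, end with CC and hold TT, a further T and A at fixed places between. Here the motif means this consensus. It was found in 43 of the 51 members with an annotated 3' UTR (84.3%) and in 515 of 20969 other protein-coding genes (2.46%). Among the members without it, Hist1h2af and Hist1h2ah had annotated 3' UTRs of 1 and 2 bases, too short to hold the motif. The sites of all 8 members that held the motif and were high enough to be tested between the groups are shown. Capitals mark the stem-loop, letters are DNA letters of the annotated transcript, 5' to 3', and 5 bases stand on each side.
Hist3h2a: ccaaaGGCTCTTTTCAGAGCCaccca
Hist2h2aa1: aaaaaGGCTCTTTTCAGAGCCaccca
Hist1h1c: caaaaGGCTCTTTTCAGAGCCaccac
Hist1h1d: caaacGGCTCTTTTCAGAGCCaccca
Hist1h2be: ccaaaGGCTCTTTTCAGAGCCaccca
Hist2h3c1: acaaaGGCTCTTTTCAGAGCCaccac
Hist2h4: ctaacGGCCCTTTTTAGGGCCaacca
Hist1h4i: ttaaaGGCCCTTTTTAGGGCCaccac
The H1, H2a, H2b and H3 genes shown have the same 16 bases in capitals, and the H4 genes Hist2h4 and Hist1h4i share another form. What differs more between members is how far the annotated transcript runs on. It ended within 50 bases after the stem-loop in 18 members, ran on for longer in 25, held an annotated 3' UTR without the motif in 8 and had no annotated 3' UTR in 14. In Hist3h2a it ran on for 1643 bases, in Hist1h1c for 840, in Hist1h1d for 4884, in Hist2h4 for 1257 and in Hist1h4i for 330, but in Hist2h2aa1 for only 35. A poly(A) signal, AATAAA or ATTAAA, stood in the last 50 bases of an annotated transcript in 16 of the 65 members. Among genes with an annotated 3' UTR the share was 31.4% of the members and 80.8% of the other protein-coding genes.

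Promoters of 58 members were matched in RefSeq (GRCm38.p6), each running from 250 bases before the start to 50 after it. The CCAAT box, searched on both strands, was in 51 of their 59 promoters (86.4%), against 37.4% of all 32851 promoters, and 72.9% held more than 1 copy against 11.7%. The H2b octamer ATTTGCAT was in 20.3% against 1.74%, and TATAAA in 54.2% against 13.6%. The promoters of the pair of members with the largest differences between the groups are shown, with matches to these motifs on either strand in capitals. Hist3h2a on the plus strand of chromosome 11 (58954435 to 58954734) held CCAAT on each strand and the octamer on the opposite strand. Hist1h1c on the plus strand of chromosome 13 (23738557 to 23738856) held a single CCAAT and no octamer. The motifs do not overlap in these windows.
Hist3h2a: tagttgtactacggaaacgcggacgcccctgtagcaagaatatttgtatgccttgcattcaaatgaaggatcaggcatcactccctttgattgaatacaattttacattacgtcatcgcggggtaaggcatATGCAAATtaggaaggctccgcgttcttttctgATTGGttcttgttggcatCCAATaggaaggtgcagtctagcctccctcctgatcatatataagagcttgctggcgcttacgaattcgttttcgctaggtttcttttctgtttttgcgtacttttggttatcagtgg
Hist1h1c: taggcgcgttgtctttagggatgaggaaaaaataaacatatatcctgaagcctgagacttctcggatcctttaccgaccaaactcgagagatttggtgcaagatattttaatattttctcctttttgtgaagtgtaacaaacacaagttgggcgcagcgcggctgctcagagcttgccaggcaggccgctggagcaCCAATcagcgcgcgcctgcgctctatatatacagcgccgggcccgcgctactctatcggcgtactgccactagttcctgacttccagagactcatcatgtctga

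The clustered histone genes had low values in these libraries. Whether RNA was selected by its poly(A) tail is not known, so low capture and low mRNA cannot be told apart. The deposited values are log2 values, and 36 of the 65 members had a mean below 2 over the 6 libraries, 14 of them below 0. The median member mean was 1.42 and the highest, that of Hist1h1c, was 7.46. Levels of different genes were compared per length, as the mean log2 value minus log2 of the longest annotated transcript in kilobases. That transcript, which spans 7.425 kilobases for Hist1h1d, may be longer than the mRNA present, and the value then understates the level. On this scale the members had a median of 2.11 and ran from -1.03 to 6.82. All 22169 genes with a length had a median of 5.14, the 11 replacement histones a median of 9.21 and 25 genes of S phase entry and DNA replication a median of 8.58. The lowest of those S phase genes, at 5.45, lay above all but 4 members, which were Hist1h1c, Hist1h2bc, Hist3h2a and Hist2h2aa1 (chosen after their values were seen). With shorter transcripts for the members this count could differ. Hist1h1c at 6.82, Hist1h2bc at 6.67 and Hist3h2a at 5.80 led the members. These 3 and Hist2h2be made up between 53.6% and 57.8% of the summed powers of 2 of all members in each library.

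The members with the higher log2 values, before any correction for length, mostly had long annotated 3' ends. Only genes whose log2 values averaged 4 or more entered the test, and 11 members passed, with Hist1h2bq at 4.28 just above that limit and Hist2h2bb at 3.87 just below it. Of the 11, 10 had an annotated 3' UTR of at least 300 bases, against 12 of the 54 others. A poly(A) signal stood near the annotated end in 8 of the 11 and in 8 of the 54. The limit of 4 was set on values not corrected for length, which can favour long transcripts. These counts therefore cannot separate level from length. Per length, the median was 1.23 for members ending at the stem-loop, 2.11 for those running past it, 3.12 for those with a 3' UTR without the motif and 2.20 for those without an annotated 3' UTR, and the ranges overlapped. The members with an annotated poly(A) signal had a median of 3.32, and those without had 1.72. All these medians use the longest annotated transcript and depend on that choice.

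**Figure D1:**
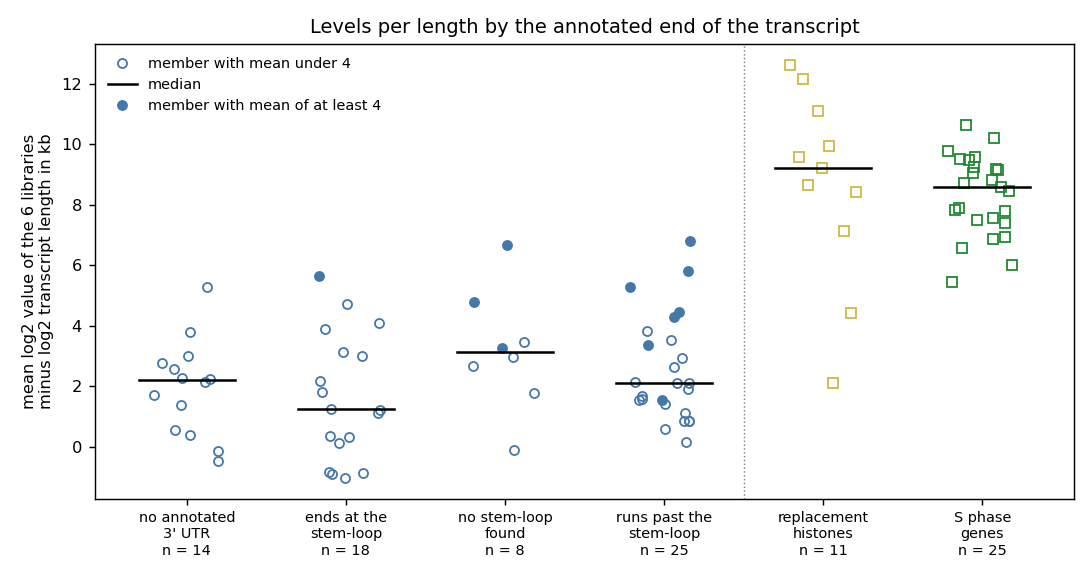
Mean log2 value of the 6 libraries minus log2 transcript length in kilobases (y axis) for the 65 members by the annotated end of their transcript, beside 11 replacement histones and 25 S phase genes; points are genes, filled points are members that entered the test, and lines are medians. The members' medians lie between 1.23 and 3.12, below the medians of 9.21 and 8.58 of the other 2 groups.

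Between the groups no member was called. The test was limma's moderated test on 14098 genes, with a Benjamini-Hochberg adjusted p of 0.05 over all of them as the threshold, and it called 0.0355% of these genes (0.0213% higher and 0.0142% lower in stress). Without adjustment, 2 of the 11 tested members had p under 0.05 and both were higher in stress, where 17.4% of all genes tested passed that level, 8.26% higher and 9.15% lower. Of the 11, 10 had a difference above 0 and 1 below, against 50.6% and 49.4% of all genes. Their median difference was 0.08 on the log2 scale, beside 0.0014 for all genes. In 4 members all stress libraries lay above all control libraries, against 12.1% of all genes, and in none did they all lie below, against 12.3%. The 11 members are not independent of each other, because some share sequence and all come from the same 6 libraries.

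Hist3h2a, an H2a gene of the Hist3 locus (chromosome 11, 58954685 to 58956830, plus strand), had the largest difference of any member. Its log2 value was 6.79, 6.71 and 6.68 in the controls, while the stress libraries read 7.01, 7.15 and 7.07. The groups did not overlap, and the gap between them was wider than the range within either. The means were 6.72 ± 0.06 (SD, n = 3) and 7.08 ± 0.07, and the difference of 0.35 ± 0.07 (SE; 1.28-fold, 95% interval 0.19 to 0.51) had a limma p of 0.00113 and an adjusted p of 0.110. The annotation places Trim17, which encodes a ubiquitin ligase, on the same strand with the same start, and 32.1% of the 31-base words of Hist3h2a also stand in Trim17 transcripts. Trim17 itself was at 4.04 ± 0.04 in control and 4.03 ± 0.04 in stress (SD, n = 3; limma adjusted p = 0.898). The other member of the locus, the H2b gene Hist3h2ba, lay between 0.13 and 0.15 in all 6 libraries, a level at which the deposited values of most genes vary little between libraries.

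The linker histone genes were led by Hist1h1c (chromosome 13, 23738808 to 23740367, plus strand). The controls read 7.35, 7.27 and 7.37, and the stress libraries 7.54, 7.43 and 7.79. The groups did not overlap, but stress replicate 2 lay only just above the highest control and stress replicate 3 stood far above the rest. The difference of 0.25 ± 0.10 (SE; 1.19-fold, 95% interval 0.02 to 0.48) had a limma p of 0.0348 and an adjusted p of 0.253. It was 0.15 without stress replicate 3 (limma adjusted p = 0.412). Hist1h1d, also a linker histone gene, read 4.38, 4.32 and 4.41 in control and 4.42, 4.43 and 4.65 in stress. Its difference of 0.13 ± 0.07 (SE, limma adjusted p = 0.374) rested in large part on the same stress replicate 3, without which it was 0.0552. The other 3 linker genes, Hist1h1a, Hist1h1b and Hist1h1e, had means from -0.53 to 3.58 and differences from -0.01 to 0.08. Hist1h1t, the linker gene of the male germ line, was listed at 0 in all libraries.

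Among the H2b genes, 4 were tested and all 4 had small positive differences. Hist1h2bc was at 6.92, 6.74 and 6.81 in control and 7.02, 6.83 and 6.99 in stress, with overlapping groups and a difference of 0.13 ± 0.08 (SE, limma adjusted p = 0.441). Hist1h2be read 4.66, 4.67 and 4.66 in control and 4.69, 4.75 and 4.78 in stress. The groups did not overlap, yet the difference was only 0.08 ± 0.04 (adjusted p = 0.384). Hist2h2be was at 6.14, 6.12 and 6.15 in control and 6.11, 6.36 and 6.14 in stress, so that stress replicate 2 alone stood apart and without it the difference was -0.01. Hist1h2bq had a difference of 0.03 ± 0.05 (adjusted p = 0.777), which was -0.0057 without control replicate 2, and 98.3% of its 31-base words also stand in Hist1h2br, so reads of these 2 genes cannot be divided with certainty. When the powers of 2 of both were summed, the log2 sum was 4.74, 4.68 and 4.75 in control and 4.77, 4.78 and 4.79 in stress. The summed groups did not overlap, and their means differed by 0.05. A sum of regularized values is an approximation, and no test was run on it.

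Of the H2a genes, only Hist3h2a and Hist2h2aa1 entered the test. Hist2h2aa1 was at 4.73, 4.91 and 4.88 in control and 4.87, 4.72 and 5.13 in stress, and its difference of 0.07 ± 0.11 (SE, limma adjusted p = 0.777) was within the spread of either group. It was 0.16 without stress replicate 2, 0.01 without control replicate 1 and -0.04 without stress replicate 3. Its near-identical partner Hist2h2aa2, of whose 31-base words 100% also stand in Hist2h2aa1, read 3.91, 3.77 and 3.66 in control and 3.79, 4.01 and 3.66 in stress. Where the one was low, as in control replicate 1 and stress replicate 2, the other was at its highest. Their log2 sum varied less, with a range of 0.196 over the 6 libraries against 0.407 and 0.352 for the single genes, and it differed by 0.06 between the groups, which overlapped.

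The H3 and H4 genes gave little to compare. Hist2h3c1 was the only H3 gene tested, with 5.22, 5.12 and 5.14 in control and 5.11, 5.18 and 5.18 in stress. Its difference was -0.0020 ± 0.049 (SE, limma adjusted p = 0.987), and the 95% interval ran from -0.12 to 0.11. Without single libraries it lay between -0.02 and 0.03. Summed with Hist2h3c2, which shares 64.2% of its words with it, the difference was -0.0043. Of the H4 genes, Hist2h4 read 5.05, 5.04 and 5.18 in control and 5.39, 5.15 and 5.19 in stress, a difference of 0.15 ± 0.08 (SE, adjusted p = 0.348) with overlapping groups. Stress replicate 1 stood highest there, and without it the difference was 0.08. Hist1h4i was at 4.77, 4.79 and 4.80 in control and 4.76, 4.79 and 4.96 in stress, with a difference of 0.05 ± 0.06 (adjusted p = 0.713). Stress replicate 3 stood highest, and without it the difference was -0.01.

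By type, the median of the tested members in each library was 5.87, 5.80 and 5.89 in control and 5.98, 5.93 and 6.22 in stress for the 2 H1 genes. For the 2 H2a genes it was 5.76, 5.81 and 5.78 in control and 5.94, 5.94 and 6.10 in stress. For the 4 H2b genes it was 5.40, 5.39 and 5.41 in control and 5.40, 5.56 and 5.46 in stress. The stress medians of H1 and H2a all lay above the control medians, while those of the other types overlapped or, for H3, rested on 1 gene. For the 2 H4 genes the medians were 4.91, 4.92 and 4.99 in control and 5.07, 4.97 and 5.07 in stress. These medians rest on few genes and carry no test.

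**Figure D2:**
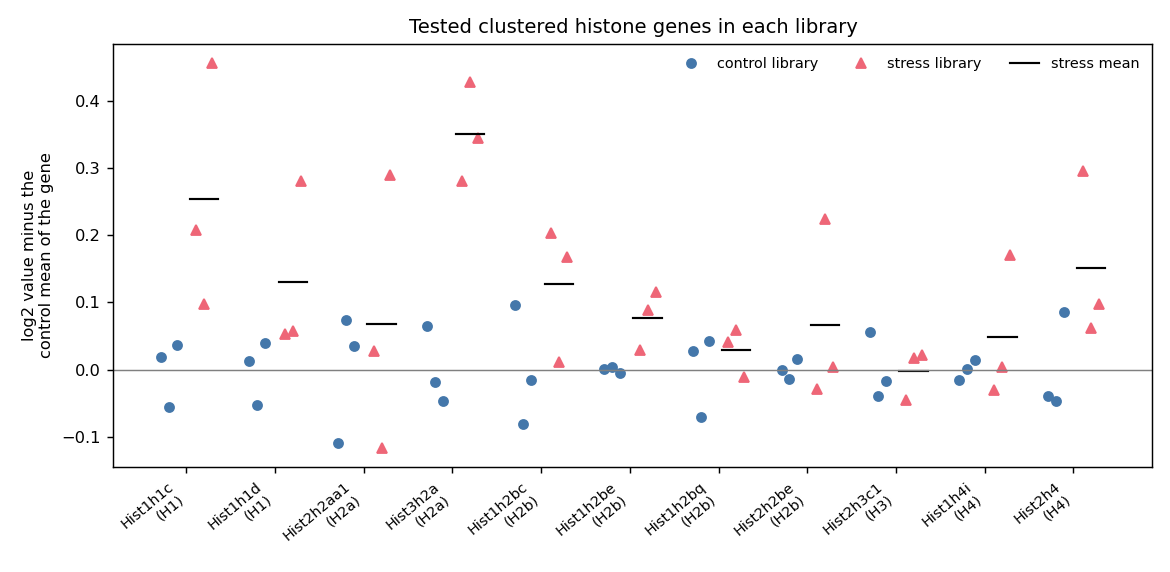
Log2 value of each library minus the control mean of the gene (y axis) for the 11 tested members ordered by histone type (x axis); circles are the 3 control libraries, triangles the 3 stress libraries and short lines the stress means. Hist3h2a has the largest stress mean, at 0.35, and the groups do not overlap in Hist1h1c, Hist1h1d, Hist3h2a and Hist1h2be.

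The 54 members under the limit had small differences. They were 3 H1, 18 H2a, 12 H2b, 11 H3 and 10 H4 genes, with differences from -0.02 to 0.12, of which 41 were above 0 and 13 below, against 50.7% and 49.3% of the 8671 genes under the limit. Their median difference was 0.005. In 4 of them the stress libraries all lay above the controls, namely Hist1h2al, Hist1h2bg, Hist1h2br and Hist1h3d (named for that reason), and in none did they all lie below. Of all genes under the limit, 3.17% lay above and 5.2% below in this way. The largest difference among them was that of Hist1h2br, at 2.83, 2.86 and 2.83 in control and 2.88, 2.90 and 3.10 in stress. The deposited values of weakly expressed genes are drawn together across libraries. The range over the libraries had a median of 0.0346 in the 1140 genes with a mean between 0 and 1 and of 0.0426 in the 14 members among them. In the 1015 genes with a mean between 5 and 6 it was 0.262. Differences of the low members are thus given on a compressed scale. The signs counted above include tiny differences, such as 0.0014 in Hist1h2ab, which had the same 6 values as Hist1h2aj.

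These low members also shared more sequence with other genes. The share of a member's 31-base words found in no other gene with a value in the table had a median of 39.0% in the 54 members and 67.9% in the 11. It was under 15% in 14 of the 54 and in 2 of the 11. Linker genes were best resolved, with a median of 96.1%, and H2a genes least, with 19.2%.

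Lists of S phase genes, histone chaperones, histone pre-mRNA processing genes and replacement histones were compared as well. Of these, only the S phase list had all its differences below 0. Of 25 genes of S phase entry and DNA replication, all 25 had differences below 0, with a median of -0.25. None passed the adjusted threshold, 20 were lower at an unadjusted p under 0.05, against 9.15% of all genes, and in 22 the stress libraries all lay below the controls, against 12.3%. Rrm2, a subunit of ribonucleotide reductase, was at 10.59, 10.68 and 10.57 in control and 10.23, 10.17 and 10.11 in stress (difference -0.45 ± 0.06, SE, limma adjusted p = 0.0647). Ccna2, cyclin A of S phase, had a difference of -0.31 ± 0.06 (adjusted p = 0.111). That these genes stand lower was known before the lists were chosen, so the count is a description.

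Among 18 histone chaperones and partners in the acetylation of new histones, 12 had differences below 0 and 6 above, with a median of -0.06. Of all genes tested, 49.4% lay below 0 and 50.6% above. None of the 18 was called. At an unadjusted p under 0.05, 3 were lower, against 9.15% of all genes, and none was higher, against 8.26%. Nasp, a chaperone of H3 and H4 and of linker histones, was at 10.85, 10.81 and 10.82 in control and 10.62, 10.56 and 10.40 in stress (-0.30 ± 0.06, SE, limma adjusted p = 0.120). Asf1b, which hands new H3 and H4 to the replication fork, had a difference of -0.25 ± 0.07 (adjusted p = 0.154). In both genes the groups did not overlap.

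Of 16 tested genes of histone pre-mRNA processing and the histone locus body, 9 had differences below 0 and 7 above. Of all genes tested, 49.4% lay below 0 and 50.6% above. The median of the 16 was -0.06, and none was called. At an unadjusted p under 0.05, 2 were lower, against 9.15% of all genes. These were Lsm11, a subunit of the U7 particle that recognises histone pre-mRNA (-0.14 ± 0.06, limma adjusted p = 0.267), and Cpsf2, a subunit of the cleavage complex (-0.15 ± 0.06, adjusted p = 0.271). Slbp was at 10.61, 10.61 and 10.48 in control and 10.55, 10.51 and 10.34 in stress, with overlapping groups and a difference of -0.10 ± 0.07. Npat, the factor that drives transcription of the clusters, differed by 0.02 ± 0.05 (adjusted p = 0.837). Casp8ap2, a protein of the histone locus body, had the difference farthest from 0, at -0.39 ± 0.19 (adjusted p = 0.346), with overlapping groups and stress replicate 3 lowest at 9.18. Slbp and Npat are named for their role and Casp8ap2 for its value, not by the rule.

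Of 10 tested replacement histones, 7 had differences below 0 and 3 above, with a median of -0.05. The shares of all genes tested were 49.4% below 0 and 50.6% above. None of the 10 was called, and 2 were lower at an unadjusted p under 0.05, against 9.15% of all genes. In 2 the stress libraries all lay below the controls and in 1 all above, against 12.3% and 12.1% of all genes. H2afz, a variant of H2a, was at 11.34, 11.29 and 11.39 in control and 10.99, 11.09 and 11.05 in stress, and the groups did not overlap. Its difference of -0.30 ± 0.05 (SE, limma adjusted p = 0.0976) was close in size to that of Hist3h2a and opposite in sign. Cenpa, the H3 variant of centromeres, had a difference of -0.15 ± 0.06 (adjusted p = 0.255). H1f0, the linker histone of resting and differentiated cells, was at 13.20, 13.14 and 13.05 in control and 13.20, 13.24 and 13.38 in stress, a difference of 0.15 ± 0.07 (adjusted p = 0.316) with no overlap. H1f0 was named after its values were seen.

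**Figure D3:**
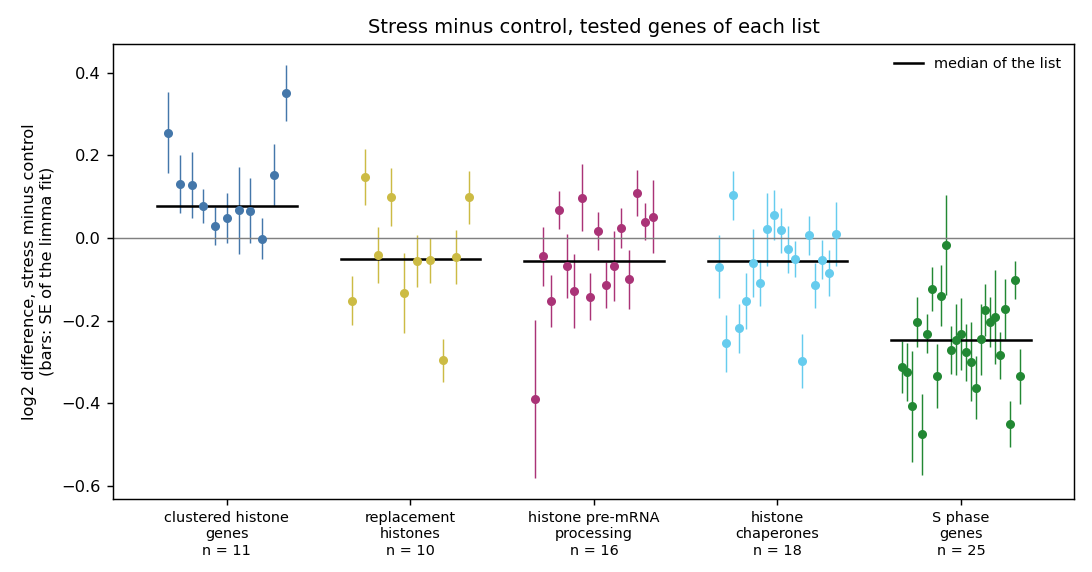
Log2 difference, stress minus control (y axis), of each tested gene with the SE of the limma fit as bars, for 11 clustered histone genes, 10 replacement histones, 16 genes of histone pre-mRNA processing, 18 chaperones and 25 S phase genes; black lines are medians. The medians are 0.08, -0.05, -0.06, -0.06 and -0.25.

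Levels of marker genes of other cell types also differed between the libraries, and in a bulk tumour fewer cells of a type and less RNA per cell cannot be told apart. The tumour epithelium list (Epcam, keratins and others) had a mean of 9.87 to 10.04 in control and 9.77 to 10.05 in stress. All 12 genes of the neutrophil list had values, and they averaged 7.40, 7.17 and 7.39 in the controls and 7.74, 7.35 and 7.99 in the stress libraries, with overlapping groups. The order of the stress libraries was the same as for Hist1h1c, with replicate 3 highest and replicate 2 lowest, and control replicate 2 was the lowest of all in both. With the neutrophil mean as a covariate the difference of Hist1h1c was 0.06 ± 0.09 (SE, limma adjusted p = 0.831) and that of Hist3h2a 0.39 ± 0.10 (adjusted p = 0.406). All 18 genes of the skeletal muscle list had values as well, with means of 8.07, 8.96 and 9.18 in control and 8.21, 8.30 and 7.28 in stress. With the muscle mean as a covariate the differences were 0.13 ± 0.11 for Hist1h1c (adjusted p = 0.783) and 0.32 ± 0.09 for Hist3h2a (adjusted p = 0.565). The neutrophil covariate was added after the data were seen. Both lists also shifted between the groups, with median gene differences of 0.35 for neutrophils and -0.76 for muscle. With 6 libraries these fits therefore cannot separate the groups from the cells, and the part of these cells in the histone values was not tested. The fibroblast list ran from 11.7337 to 12.46 in control and from 11.54 to 11.7315 in stress, with 11 of 12 genes below 0. The endothelial list ran from 9.06 to 9.27 in control and from 8.78 to 8.96 in stress, with 10 of 11 below 0. Of all genes tested, 49.4% lay below 0. In neither list did the means of the groups overlap. Means of the macrophage (10.65 to 10.73 and 10.50 to 10.90), T and NK cell (6.25 to 6.72 and 6.37 to 6.75), B and plasma cell (4.49 to 4.72 and 4.33 to 4.60) and erythroid lists (6.05 to 6.84 and 6.20 to 6.40) overlapped between the groups.

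**Figure D4:**
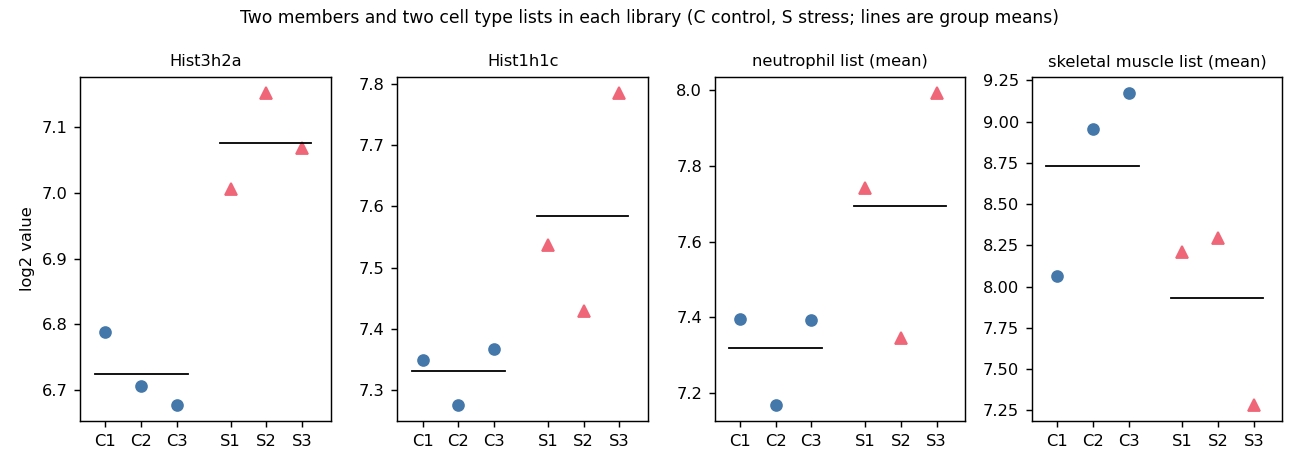
Log2 values of Hist3h2a and Hist1h1c and the mean log2 values of the neutrophil and skeletal muscle lists (y axes, each panel with its own range) in the 3 control (C1 to C3, circles) and 3 stress libraries (S1 to S3, triangles); lines are group means. Stress replicate 3 is highest for Hist1h1c at 7.79 and for the neutrophil list at 7.99, while for Hist3h2a the 3 stress libraries lie between 7.01 and 7.15.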

How the data were processed

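The mRNA table of 6 libraries was used; the 6 miRNA libraries hold no histone gene and were not used. Although named as raw counts, the deposited table holds normalized log2 values, judged from their fractions, their range of -1.97 to 17.85 and their shrinkage at low levels; base 2 was assumed. Per the submitters' processing notes, bcl2fastq, the quantifier kallisto 0.46.1 and mm10 were used; the sources used here do not describe the later transform. Sequencing depth is therefore unknown. Of 35453 rows, 12658 were 0 in all libraries and 26 bore a date for a symbol, and both kinds were left out. Stress and control, grouped by the sample titles, were compared for 14098 genes with a mean of at least 4 by limma 3.58.1 in R 4.3.3 (variance trend, robust, two-sided, no covariate), with Benjamini-Hochberg adjustment over all genes. The fit was also run on simulated data in which genes varied independently. That run did not cover shifts shared by many genes. With 3 libraries against 3, exact permutation could not go below p = 0.1.

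The members and lists were chosen with earlier results of these data known. Named were all tested H1 genes. In each type the 3 tested members with the highest means and, per direction, the 2 with the smallest p were named. Of the S phase, chaperone, pre-mRNA processing and replacement histone lists, the 2 genes with the smallest p were named. Others are marked. Gene positions and transcripts came from GENCODE M21. All 65 members matched by symbol, and 58 had a promoter in RefSeq. Words of 31 bases were compared, on both strands, between transcripts of genes with a value in the table. Alternatives were other filters, variance models and scalings, a replicate block, covariates and leaving out each library.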

Additional observations from a re-analysis of the deposited data

How the results depend on the processing

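In all 15 alternatives limma called 0 members and 0 genes of the S phase, chaperone, pre-mRNA processing and replacement histone lists. Members at an unadjusted p under 0.05 numbered 1 to 4. The smallest adjusted p of a member lay between 0.0934 (quantile normalization) and 0.565 (muscle covariate). Hist3h2a kept a difference of 0.313 to 0.400 throughout. Tested members higher at an unadjusted p under 0.05 numbered 2 as reported, 1 with a muscle or neutrophil covariate and 1 to 3 without single libraries. With a mean of at least 6, only 4 members were tested, all 4 were above 0 and their median difference was 0.191. The only H2a gene among them was Hist3h2a, at 0.351. The median difference of the tested members, 0.0773, was 0.0585 to 0.159 without single libraries, highest without stress replicate 2, and 0.0382 at the lowest of all settings. With the neutrophil covariate, added after seeing the data, the H1 median was 0.0377, the H4 median 0.0393, that of histone pre-mRNA processing -0.0194 and that of the S phase list -0.157. With the muscle covariate the H3 value was -0.0470 and the S phase median -0.147. Without single libraries the pre-mRNA processing median ran from -0.0971 to -0.00970, nearest to 0 without stress replicate 3. The cause of these shifts was not tested.

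Replicate numbers are shared between the groups, but libraries of the same number did not deviate together (correlations across genes of -0.079, 0.082 and -0.018), so the numbers were not taken as pairs. With the replicate block, 0 genes were called in place of 5; no member was called, and Hist3h2a had an adjusted p of 0.194. A planned list of small RNA genes without a poly(A) tail had 0 genes with a value and gave no result. Depth is unknown, and the smaller spread of the deposited values at low levels limits what can be seen in the 54 untested members.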
